A study of Mus musculus with 43 samples.

Results

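The transcripts of 10 genes that mark oligodendrocyte precursor cells (OPCs) or the first steps of their differentiation were followed through 43 RNA-sequencing libraries of glia purified from the cerebral cortex of 3-month-old mice. The genes were chosen by name, as Cspg4, Ptprz1, Lhfpl3, Pcdh15, C1ql1, Matn4, Gpr17, Neu4, Bmp4 and Enpp6, out of 55416 genes with a count in each library. All 10 were found and all 10 passed the low-count filter of the fit over all libraries, which kept 21368 genes.

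Each library came from 1 mouse and 1 cell type. Immunodeficient Rag2-/- mice, which lack mature B and T lymphocytes because Rag2 encodes a subunit of the recombinase that assembles antigen receptor genes, were compared with immunocompetent littermates of the same sex (except in pair 6, where the control was male and the Rag2-/- mouse female). The controls were Rag2+/- in pairs 1, 2, 3 and 5 and Rag2+/+ in pairs 4 and 6, and no other allele or treatment was given for either group. Cells were taken in order from plates coated with antibodies to CD45 (microglia), PDGFRα (OPCs) and, after removal of cells bound by O4, GalC (oligodendrocytes) and HepaCAM (astrocytes). There were 6 control and 5 Rag2-/- OPC libraries, 4 and 4 oligodendrocyte libraries (pairs 1, 3, 5 and 6), 6 and 6 astrocyte libraries and 6 and 6 microglia libraries. The 43 libraries therefore share 12 mice. Within a cell type each mouse gave 1 library, so p-values for genotype and sex there measure the spread between mice. The fit of all cell types had no term for the mouse and took libraries of the same mouse as independent. Its p-values measure the spread between libraries, and a fit with the mouse as replicate block was an alternative. Libraries of each cell type were sequenced in a lane of their own, so lane and cell type cannot be told apart.

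OPCs are the dividing, PDGFRα-positive glia of the adult brain. They persist throughout the parenchyma, and on leaving the cycle they pass through a brief committed, premyelinating stage before they become myelinating oligodendrocytes. Cspg4 (the NG2 proteoglycan), Ptprz1 (a receptor-type tyrosine phosphatase that carries chondroitin sulfate), Lhfpl3 (a tetraspan membrane protein), Pcdh15 (a protocadherin), C1ql1 (a secreted C1q-domain protein) and Matn4 (a matrilin of the extracellular matrix) are known as genes of the progenitor stage. Gpr17 (a G protein-coupled receptor), Neu4 (a sialidase), Bmp4 (a secreted ligand of the BMP family) and Enpp6 (a choline-specific glycerophosphodiesterase) are best known from committed and newly formed oligodendrocytes.

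To show the DNA just upstream of these genes, the 250 bases before the annotated start were read from RefSeq (GRCm38.p6, a different build from that of the counts) for 8 of the 10 genes, in 9 windows because Matn4 has a pair of starts. C1ql1 and Gpr17 had no window. Windows are printed for Enpp6, the gene with the opposite distribution to the other members, and for Ptprz1, Cspg4 and Lhfpl3, which were among the most abundant in OPCs. Capitals mark the core of SOX sites (ACAAAG or ACAATG), the E-box CAGCTG and the GC box GGGCGG, each searched on both strands. The windows were chr8:46986637-46986886 (plus strand) for Enpp6, chr6:22875252-22875501 (plus) for Ptprz1, chr9:56864854-56865103 (plus) for Cspg4 and chr5:22745804-22746053 (plus) for Lhfpl3:
Enpp6: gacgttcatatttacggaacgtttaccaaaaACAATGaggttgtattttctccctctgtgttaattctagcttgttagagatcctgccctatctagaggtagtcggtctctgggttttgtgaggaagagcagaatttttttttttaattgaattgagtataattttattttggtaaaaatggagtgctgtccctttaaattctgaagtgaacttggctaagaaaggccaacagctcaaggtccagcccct
Ptprz1: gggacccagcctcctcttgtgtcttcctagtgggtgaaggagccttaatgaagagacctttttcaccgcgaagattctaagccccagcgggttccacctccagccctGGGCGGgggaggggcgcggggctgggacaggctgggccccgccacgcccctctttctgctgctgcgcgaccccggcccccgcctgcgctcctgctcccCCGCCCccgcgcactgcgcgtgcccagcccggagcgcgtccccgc
Cspg4: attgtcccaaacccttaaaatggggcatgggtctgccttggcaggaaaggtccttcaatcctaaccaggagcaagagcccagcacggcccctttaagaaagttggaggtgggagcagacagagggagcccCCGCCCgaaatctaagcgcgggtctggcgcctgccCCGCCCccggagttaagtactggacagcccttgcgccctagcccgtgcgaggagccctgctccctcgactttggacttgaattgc
Lhfpl3: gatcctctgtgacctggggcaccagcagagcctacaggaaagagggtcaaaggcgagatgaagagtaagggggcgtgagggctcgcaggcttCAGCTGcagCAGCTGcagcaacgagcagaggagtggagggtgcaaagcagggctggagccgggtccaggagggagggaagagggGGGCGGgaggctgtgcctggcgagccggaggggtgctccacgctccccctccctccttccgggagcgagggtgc

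GC content of the Enpp6 window was 38.4%, below the median of 52.4% over all 32851 windows, and the Ptprz1, Lhfpl3 and Cspg4 windows held 71.6%, 67.2% and 60.4%. Among the windows not printed, Pcdh15 held 50.4%, Neu4 53.6%, Matn4 54.4% and 62.8%, and Bmp4 63.2%. Members high in OPCs thus lay on both sides of the median. The GC box was found in 5 of the 8 members with a window (Ptprz1, Cspg4, Lhfpl3, Matn4 and Bmp4), against 32.7% of all windows. The SOX core was found in 1 of 8 (Enpp6) against 25.2%, and CAGCTG in 1 of 8 (Lhfpl3, with 2 matches) against 13% of all windows. TATAAA was found in 1 of 8 members (12.4% of all windows) and CCAAT in 2 of 8 (33.8%), and the Neu4 window held none of these motifs. These matches describe the letters in the windows and nothing else.

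In GRCm39 the progenitor-stage genes lie on chromosome 9 (Cspg4, ENSMUSG00000032911, 56772317 to 56807187, plus strand), chromosome 6 (Ptprz1, ENSMUSG00000068748, 22875358 to 23054236, plus), chromosome 5 (Lhfpl3, ENSMUSG00000106379, 22951057 to 23480611, plus), chromosome 10 (Pcdh15, ENSMUSG00000052613, 72935174 to 74485569, plus), chromosome 11 (C1ql1, ENSMUSG00000045532, 102829755 to 102837610, minus) and chromosome 2 (Matn4, ENSMUSG00000016995, 164230090 to 164247080, minus). The committed-stage genes lie on chromosome 18 (Gpr17, ENSMUSG00000052229, 32076050 to 32082888, minus), chromosome 1 (Neu4, ENSMUSG00000034000, 93948173 to 93956056, plus), chromosome 14 (Bmp4, ENSMUSG00000021835, 46620250 to 46636745, minus) and chromosome 8 (Enpp6, ENSMUSG00000038173, 47439919 to 47549797, plus). The 10 genes thus lie on 10 different chromosomes. Counts were summed over all annotated exons of a gene. Other genes overlap 31.1% of the exon bases of Bmp4, 17.6% of Lhfpl3, 13% of Matn4 and 5.93% of Gpr17, mostly on the opposite strand, so part of the counts of these 4 genes is uncertain where strand was not used.

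Libraries held 6499417 to 23118497 counts on genes (median 10447042). Mitochondrial genes took 45.8% to 60.1% of the counts in oligodendrocytes, 22.4% to 36.7% in OPCs, 22.5% to 45.1% in astrocytes and 6.75% to 11.7% in microglia. Levels are counts per 1000000 counts (CPM), with library sizes scaled by TMM over all libraries, and levels of different genes were compared as CPM per kilobase of exon. Exon length was that of all annotated exons of a gene merged, and the order of genes under other lengths was not tried. The targeted gene, Rag2, had no count in 40 of the 43 libraries and in none of the Rag2-/- libraries, so it did not check the labels at this depth. The purified types carried their own marker genes: 12 genes of mature oligodendrocytes summed to 28168 to 36515 CPM in oligodendrocytes and 303 to 1370 in OPCs, 8 astrocyte markers to 18477 to 22251 in astrocytes and 2103 to 5863 in OPCs, and 8 microglia markers to 4619 to 5804 in microglia and 104.1 to 505 in OPCs. In such bulk samples fewer cells of a type and less RNA per cell cannot be told apart.

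The 6 progenitor-stage genes were highest in OPCs. Ptprz1 ran from 1994 to 2665 CPM over the 11 OPC libraries (median 2259), Cspg4 from 359 to 622 (median 519) and Pcdh15 from 328 to 448 (median 389). These levels were narrow in spread, with coefficients of variation of 10.0%, 14.3% and 10.8%. Lhfpl3 ran from 241 to 340 CPM (median 272), C1ql1 from 114 to 177 (median 130) and Matn4 from 46.4 to 113 (median 75.5). Matn4 was the most variable of the progenitor-stage genes in OPCs, with a coefficient of variation of 22.9%.

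Among the committed-stage genes, Gpr17 and Neu4 were abundant in OPCs and Bmp4 and Enpp6 were scarce there. Gpr17 ran from 447 to 734 CPM (median 625) and Neu4 from 124 to 175 CPM (median 145). Bmp4 ran from 5.57 to 14.6 CPM (median 10.0) and Enpp6 from 0.660 to 9.20 CPM (median 3.88). With 8 to 129 counts in each OPC library, Enpp6 had the fewest counts and the widest relative spread of the members in this cell type (coefficient of variation 65.6%). The part of the low counts in this spread was not tested.

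**Figure D1:**
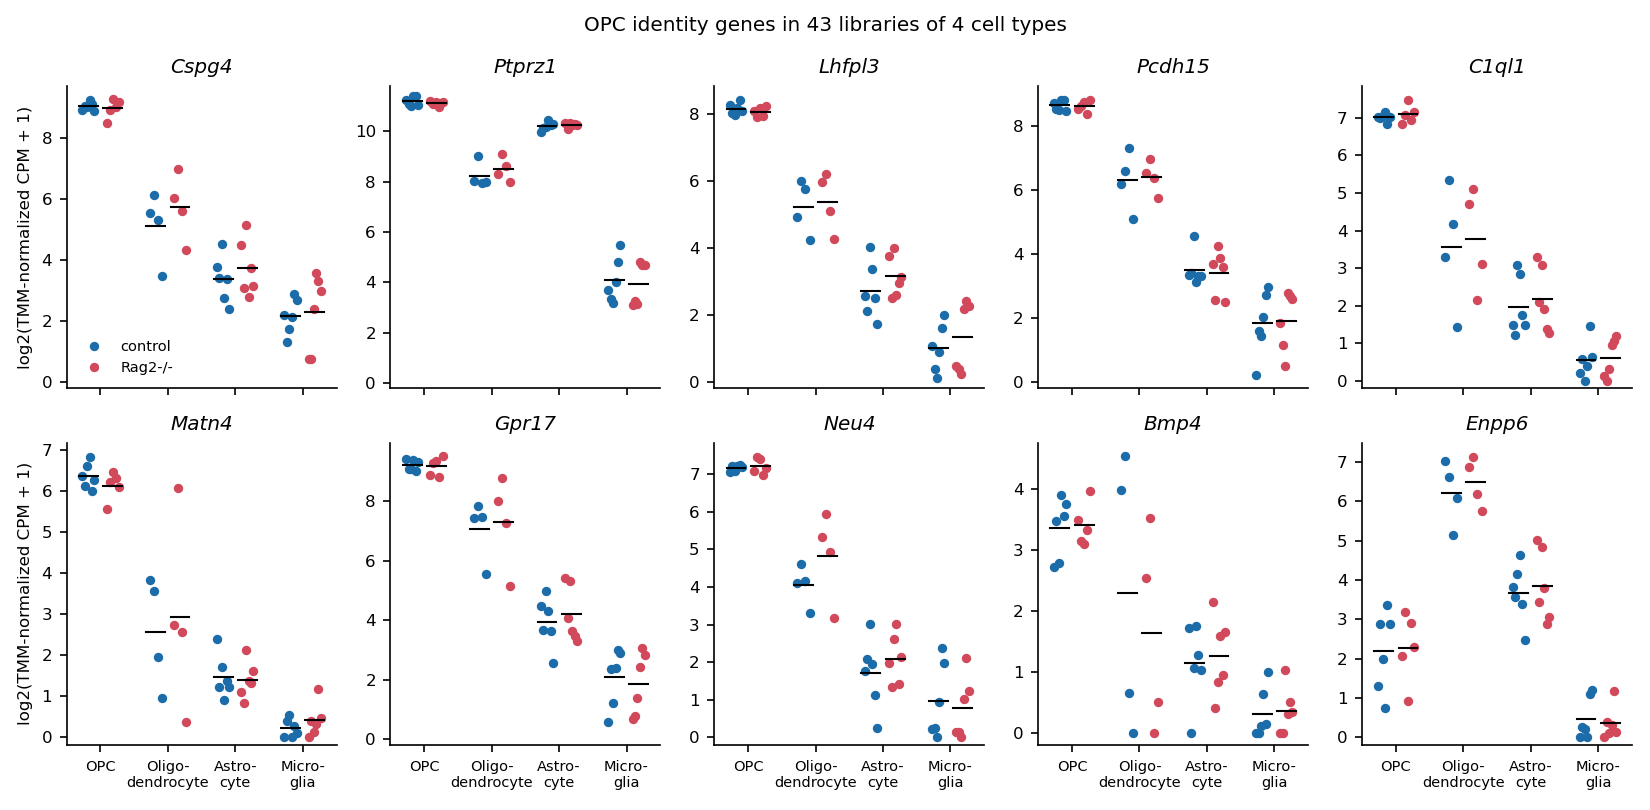
Level of each of the 10 genes in every library, as log2(CPM + 1) on the vertical axis, with cell types along the horizontal axis. Blue points are controls, red points Rag2-/-, and black bars the mean of the log2 values. In 8 panels all or nearly all OPC libraries lie above every other library, while the Enpp6 panel peaks in oligodendrocytes (34.3 to 139 CPM) and Ptprz1 stays high in astrocytes (999 to 1387 CPM).

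Corrected for exon length, Ptprz1 (122 ± 12.2 CPM per kb, SD, n = 11), Gpr17 (110 ± 17.6) and Lhfpl3 (85.8 ± 9.62) led the order in OPCs. The ranges of these 3 overlapped from one gene to the next, with Ptprz1 above Gpr17 in 8 of 11 libraries and Gpr17 above Lhfpl3 in 10 of 11. C1ql1 (66.4 ± 8.56 CPM per kb) came next, above Cspg4 (43.6 ± 6.26) without overlap. Neu4 (26.3 ± 2.67), Pcdh15 (16.6 ± 1.80), Matn4 (10.9 ± 2.51), Bmp4 (1.87 ± 0.573) and Enpp6 (0.703 ± 0.461) followed. From Lhfpl3 downward each gene lay above the next in 11 of 11 libraries, although the ranges also overlapped for the neighbours Lhfpl3 and C1ql1, Cspg4 and Neu4, Pcdh15 and Matn4, and Bmp4 and Enpp6. In oligodendrocytes the order of mean levels per kilobase began with Gpr17 (35.0), Ptprz1 (18.5), Enpp6 (13.8) and Lhfpl3 (13.5), and there the ranges of all neighbours overlapped.

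To ask how sharply the genes separate OPCs from the cells they give rise to, OPCs were compared with oligodendrocytes. Of the 10 genes, 8 were higher in OPCs at an adjusted p under 0.05 (25% of all 21368 genes were) and 1, Enpp6, was lower (15.7% of all genes). The median log2 fold change of the 10 genes was 2.66, against 0.24 over all genes. The 8 genes were higher in OPCs in 7 of the 7 mice that gave both cell types, and Enpp6 in 0 of 7. These genes had passed the test on the same libraries, so the count of mice is not separate evidence. How many of all genes were higher in 7 of 7 mice, or separated these cell types without overlap, was not counted. Markers of other cells differed in the same comparison. Of the mural cell markers 9 of 9 were higher in OPCs (median log2 2.74), with summed levels of 95.9 to 410 CPM in OPCs and 13.6 to 130 CPM in oligodendrocytes, of the endothelial markers 5 of 6 (2.60, 19.3 to 84.2 and 3.19 to 21.4 CPM), and of the astrocyte markers 7 of 8 (1.16). Mural cells are also known to express Cspg4, and the part of these cells in the members' levels was not tested.

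The progenitor-stage genes fell in oligodendrocytes to 10.1% to 22.4% of their OPC mean, with a median of 15.4%. These shares depend on the scaling, and with total counts Cspg4 stood at 5.17% in place of 10.1%, Pcdh15 at 11.1% in place of 22.4%, and Gpr17 of the committed stage at 16.2% in place of 31.7%. Cspg4 measured 45.3, 70.2, 39.2 and 10.1 CPM in control oligodendrocytes (pairs 1, 3, 5 and 6) and 64.1, 125, 47.7 and 19 CPM in Rag2-/- oligodendrocytes. No oligodendrocyte library reached the lowest OPC library, and the fold change was the largest toward OPCs among the members in the fit of all libraries (log2 3.39, SE 0.42, adjusted p = 1.1e-08). Without the Rag2-/- oligodendrocytes of pair 3 that of Matn4 was larger, at 3.93 against 3.62 for Cspg4. Cspg4 is among the OPC markers that the study itself used on these samples, so its direction is not independent evidence.

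Ptprz1 measured 257, 517, 244 and 252 CPM in control oligodendrocytes and 312, 542, 397 and 250 CPM in Rag2-/- mice. The pair 3 libraries were the highest of each genotype, and all 8 lay below the OPCs (log2 2.72, SE 0.26, adjusted p = 2.1e-11). Pcdh15 measured 71.8, 95.3, 156 and 33.2 CPM in controls and 91.7, 125, 82.1 and 53.0 CPM in Rag2-/- oligodendrocytes, again without overlap with OPCs (log2 2.16, SE 0.34, adjusted p = 2.2e-06). Lhfpl3 (17.9 to 72.8 CPM in oligodendrocytes) differed by a log2 fold change of 2.68 (SE 0.40, adjusted p = 7.2e-07) and C1ql1 (1.68 to 39.3 CPM) by 3.03 (SE 0.45, adjusted p = 6.8e-07), and neither overlapped with OPCs.

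Matn4 was uneven among oligodendrocytes. It measured 13.1, 10.8, 2.84 and 0.918 CPM in controls and 5.57, 65.6, 4.87 and 0.280 CPM in Rag2-/- mice. A single library, Rag2-/- of pair 3, reached into the OPC range, and the other 7 lay below it. Its log2 fold change was 2.86 (SE 0.50, adjusted p = 1.1e-05), and 3.93 without that library.

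Gpr17 and Neu4 were lower in oligodendrocytes than in OPCs as well, although Gpr17 by less. Gpr17 measured 171, 227, 177 and 46.2 CPM in control oligodendrocytes and 257, 442, 153 and 34.4 CPM in Rag2-/- oligodendrocytes, a mean of 31.7% of that in OPCs. The highest of these, Rag2-/- of pair 3, lay just under the lowest OPC library at 447 CPM (log2 1.71, SE 0.41, adjusted p = 0.00092). Neu4 measured 16.3, 23.5, 16.9 and 8.87 CPM in controls and 38.8, 59.8, 29.2 and 7.97 CPM in Rag2-/- oligodendrocytes, clear of the OPCs (log2 2.63, SE 0.47, adjusted p = 1.9e-05).

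Enpp6 ran the other way. It measured 129, 96.4, 34.3 and 66.2 CPM in control oligodendrocytes and 116, 139, 72.1 and 52.7 CPM in Rag2-/- oligodendrocytes, against at most 9.20 CPM in OPCs. All 8 oligodendrocyte libraries lay above all 11 OPC libraries (log2 of OPC against oligodendrocyte -4.27, SE 0.48, adjusted p = 1.6e-09). Its mean in oligodendrocytes was 1958% of that in OPCs.

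Bmp4 did not pass the test between OPCs and oligodendrocytes. It measured 14.7, 22.1, 0.57 and 0 CPM in control oligodendrocytes and 4.82, 10.5, 0 and 0.419 CPM in Rag2-/- oligodendrocytes. Both controls of pairs 1 and 3 exceeded every OPC library (highest 14.6 CPM), the Rag2-/- library of pair 3 lay inside the OPC range and that of pair 1 just under it, while pairs 5 and 6 were near 0, and OPCs were higher in 4 of 7 mice. The log2 difference was 1.15 (SE 0.68, 95% interval -0.21 to 2.52, adjusted p = 0.17). It passed the test without the pair 3 oligodendrocytes (2.01, adjusted p = 0.026, an alternative chosen after seeing the data), with no filter on low counts (1.24, adjusted p = 0.031) and under scaling to total counts (2.06, adjusted p = 0.0096).

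**Figure D2:**
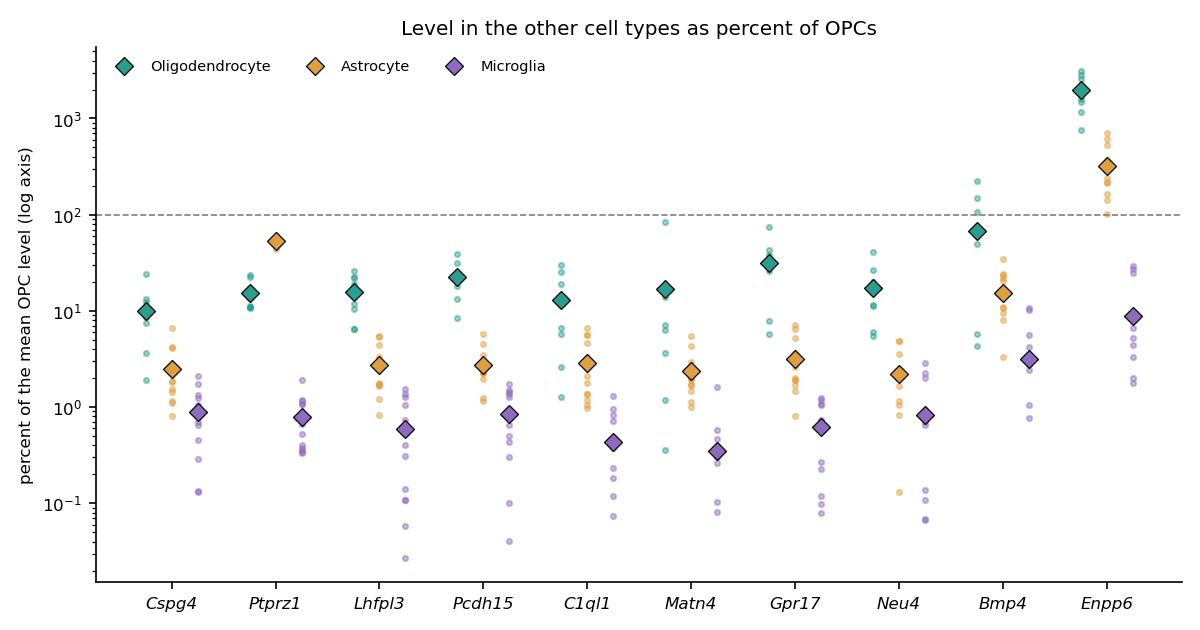
Level of each gene in oligodendrocytes, astrocytes and microglia as a percent of its mean in OPCs, on a log axis with a dashed line at 100%. Dots are single libraries, diamonds their means, and libraries with no count are not drawn. Most means in oligodendrocytes lie between 10.1% and 31.7%, those of 7 genes in astrocytes between 2.23% and 3.17% and those in microglia between 0.349% and 8.75%, with Enpp6 above 100% in oligodendrocytes and astrocytes and Ptprz1 at 52.8% in astrocytes.

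The same comparison was made within each genotype. In controls 8 members were higher and 1 lower (14.3% and 12.2% of all genes), and in Rag2-/- mice 7 were higher and 1 lower (16.8% and 11% of all genes). The member that passed in controls (log2 1.95, SE 0.58, adjusted p = 0.011) and not in Rag2-/- mice (1.46, SE 0.59, adjusted p = 0.057) was Gpr17. In Rag2-/- mice it did pass without the oligodendrocytes of pair 3 (1.99, adjusted p = 0.017) and in the fit without the microglia of pairs 4 to 6 (1.52, adjusted p = 0.027), both chosen after seeing the data. The difference between these effects did not pass a test of its own (log2 -0.49, SE 0.78, adjusted p = 0.85).

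The choice of scaling moved all genes together in this comparison. The median log2 fold change of all genes was 0.24 with TMM, 0.17 with the size factors of DESeq2, 0.64 with total counts without mitochondrial genes and 1.25 with total counts, and the share of called genes that were higher in OPCs was 61.4%, 56.7%, 81.0% and 93.2%. A change of scaling shifts all genes by nearly the same amount, so values relative to that median can hardly move and do not test the scaling. Cspg4 stood 3.14, 3.16, 3.14 and 3.09 above it, Gpr17 1.47, 1.48, 1.47 and 1.42 above it, and Enpp6 stood at -4.51, -4.49, -4.50 and -4.53.

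Against astrocytes, a lineage apart, 9 of the 10 genes were higher in OPCs (25.4% of all genes) and 1, Enpp6, was lower (17.1% of all genes). Of these, 8 genes differed by log2 2.88 (Bmp4, SE 0.60, adjusted p = 0.00014) to 5.51 (Neu4, SE 0.47, adjusted p = 5.3e-13) with no overlap between the libraries. How many of all genes separated OPCs from astrocytes without overlap was not counted. Cspg4 averaged 12.9 ± 9.02 CPM in astrocytes (SD, n = 12), Gpr17 18.8 ± 12.2 and Pcdh15 10.9 ± 5.17 CPM. Means of the 7 members other than Ptprz1, Bmp4 and Enpp6 lay between 2.23% and 3.17% of those in OPCs.

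Ptprz1 was the exception among the genes higher in OPCs. Control astrocytes ran from 999 to 1387 CPM (median 1186) and Rag2-/- astrocytes from 1078 to 1284 CPM (median 1232). Astrocytes thus held 52.8% of the OPC level, more than oligodendrocytes did (log2 of oligodendrocyte against astrocyte -1.81, SE 0.25, adjusted p = 6.2e-08), and still lay below every OPC library (log2 of OPC against astrocyte 0.92, SE 0.21, adjusted p = 0.00046). Per kilobase of exon Ptprz1 measured 64.2 in astrocytes, above the next member, Gpr17 at 3.49, without overlap.

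Enpp6 was higher in astrocyte than in OPC libraries, with controls from 4.54 to 24 CPM (median 11.9) and Rag2-/- libraries from 6.41 to 31.5 CPM (median 11.4). The ranges of OPCs and astrocytes overlapped, and OPCs were higher in 1 of 11 mice (log2 -1.67, SE 0.43, adjusted p = 0.0014). The 12 genes of mature oligodendrocytes summed to 3699 to 6676 CPM in the same astrocyte libraries, and 12 of 12 were lower in OPCs than in astrocytes. Their part in the Enpp6 result was not tested.

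Microglia carried the least of every member. All 10 genes were higher in OPCs (38.7% of all genes were), from log2 3.39 (Enpp6, SE 0.51, adjusted p = 1.6e-07) to 8.07 (Matn4, SE 0.58, adjusted p = 4.3e-16). Among the members the libraries overlapped for Enpp6 alone, and the share of all genes without overlap was not counted. Ptprz1 was the most abundant, at 8.14 to 43.4 CPM in controls (median 13.6) and 7.66 to 26.9 CPM in Rag2-/- microglia (median 16.7). C1ql1, Matn4, Neu4, Bmp4 and Enpp6 had no count in 2, 3, 2, 4 and 3 of the 12 microglia libraries.

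Between oligodendrocytes and astrocytes, 9 members were higher in oligodendrocytes (25.7% of all genes) and Ptprz1 was lower (24% of all genes). Enpp6 differed by log2 2.60 (SE 0.43, adjusted p = 2.6e-06) with no overlap. The weakest of the 9 was Bmp4 (1.73, SE 0.65, adjusted p = 0.025), a call that was lost with the mouse as replicate block (1.61, adjusted p = 0.098), under scaling to total counts (1.23, adjusted p = 0.11), in a fit of these cell types alone (1.21, adjusted p = 0.24), without oligodendrocyte pair 3 (0.83, adjusted p = 0.32) and without any single oligodendrocyte library of pair 1 or 3 (1.14 to 1.55, adjusted p 0.051 to 0.15). Microglia were lower than either type in all 10 genes (33.2% of all genes for oligodendrocytes and 36.5% for astrocytes).

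To set the members among other genes of the lineage, 4 further lists were described. Of 20 other OPC genes, 17 were higher in OPCs than in oligodendrocytes and 0 lower, with a median log2 of 2.38, led by Susd5 (3.42), Tmem100 (3.06) and Pdgfra (3.02), which encodes the receptor bound by the antibody used for selection. Sox10, Nkx2-2 and St8sia3 did not pass. Pdgfra, Cdo1, Olig1, Olig2, Sox10 and St8sia3 on this list served as OPC markers in the study, on these samples. All 12 genes of mature oligodendrocytes were lower in OPCs (median log2 -4.84), with Mobp at -5.97, Mbp, a major myelin protein gene, at -5.91 and Cldn11 at -5.37.

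The 15 genes of newly formed oligodendrocytes were split, with 3 higher in OPCs (Itpr2 1.47, Lims2 1.35 and Zfp488 1.06), 4 lower (Bcas1 -3.14, Myrf -2.80, Nfasc -2.56 and Sirt2 -0.79) and a median log2 of 0.09, near the 0.24 of all genes. The committed-stage members were split too, with Gpr17 and Neu4 higher in OPCs, Enpp6 lower and Bmp4 not passing. Against astrocytes 17 of the 20 other OPC genes were higher and 2 lower (Luzp2 -1.08 and Bcan -0.64), beside the single member, Enpp6, that was lower.

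**Figure D3:**
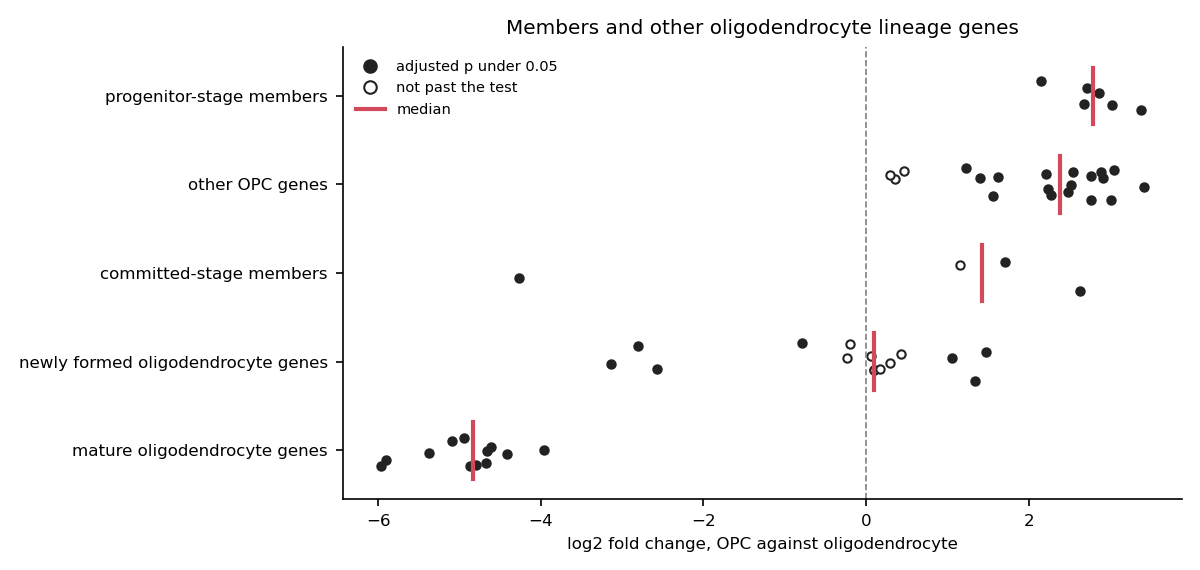
Log2 fold change of OPCs against oligodendrocytes on the horizontal axis for the genes of 5 lists along the vertical axis. Filled points passed an adjusted p of 0.05, open points did not, and red bars are list medians. Of the members, 8 lie between 1.71 and 3.39, beside the other OPC genes (median 2.38), Enpp6 at -4.27 lies with the mature genes (median -4.84), and the newly formed genes spread to both sides of 0.

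Ligands, receptors and other partners of the members were next. Of 11 such genes, 8 were higher in OPCs than in oligodendrocytes and 0 lower, with a median log2 of 1.56. The largest were Mdk (2.95) and Tnc (2.44), which encode a ligand and a matrix ligand of the phosphatase made from Ptprz1, and Bmpr1b (2.13), a receptor of BMP ligands. Against astrocytes 3 of the 11 partners were higher in OPCs (25.4% of all genes) and 5 lower (17.1%), among them Bmpr1b (-3.17) and Tnc (-1.22). The median log2 of the partners was 0.06 there, against 0.14 over all genes. Of 27 relatives of the members by gene family, 21 passed the filter, of which 7 were higher in OPCs than in oligodendrocytes (C1ql2 4.26, Bmp7 3.42 and Neu3 3.40 the largest) and 4 lower (Enpp2 -2.02, Enpp4 -1.89 and Cysltr1 -1.60 the largest). Over all genes 25% were higher and 15.7% lower. The median log2 of the relatives was 0.21, near the 0.24 of all genes.

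Variation among libraries had structure. In oligodendrocytes the 6 progenitor-stage genes summed to 425, 795, 512 and 316 CPM in control pairs 1, 3, 5 and 6 and to 560, 964, 568 and 348 CPM in the Rag2-/- mice of the same pairs. Pair 3 was highest and pair 6 lowest in both genotypes. The 20 other OPC genes followed the same order at the ends, with pair 3 at 1964 and 2060 CPM and pair 6 at 922 and 1114 CPM. Markers of other cells moved as well: 8 neuron markers summed to 620 and 599 CPM in pair 3, the lowest of all 8 libraries, and to 3093 and 2262 CPM in pair 6, and 8 microglia markers were highest in pair 3 (756 and 656 CPM, against 240 to 415 CPM in the other 6 libraries). Their part in the members' levels was not tested.

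In microglia the progenitor-stage genes summed to 11.1 to 17 CPM in pairs 1 to 3 and to 23 to 59.3 CPM in pairs 4 to 6. Ptprz1 ran from 7.66 to 11.9 CPM in the 6 libraries of pairs 1 to 3 and from 15.4 to 43.4 CPM in those of pairs 4 to 6, and Neu4 from 0 to 0.200 and from 0.937 to 4.2 CPM. Neither gene overlapped between these sets of pairs, which were formed after seeing the values and carry no test. Without pairs 4 to 6 (an alternative added after seeing the data) all 10 members stayed higher in OPCs than in microglia, by log2 5.05 to 10.67. Among astrocytes Cspg4 was highest in pairs 1 and 3, at 12.9 and 22.2 CPM in controls and 21.6 and 34.9 CPM in Rag2-/- mice, and the mature oligodendrocyte genes were also highest in pair 3 in both genotypes, at 5253 and 6676 CPM. The part of oligodendrocyte lineage RNA in these astrocyte values was not tested.

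**Figure D4:**
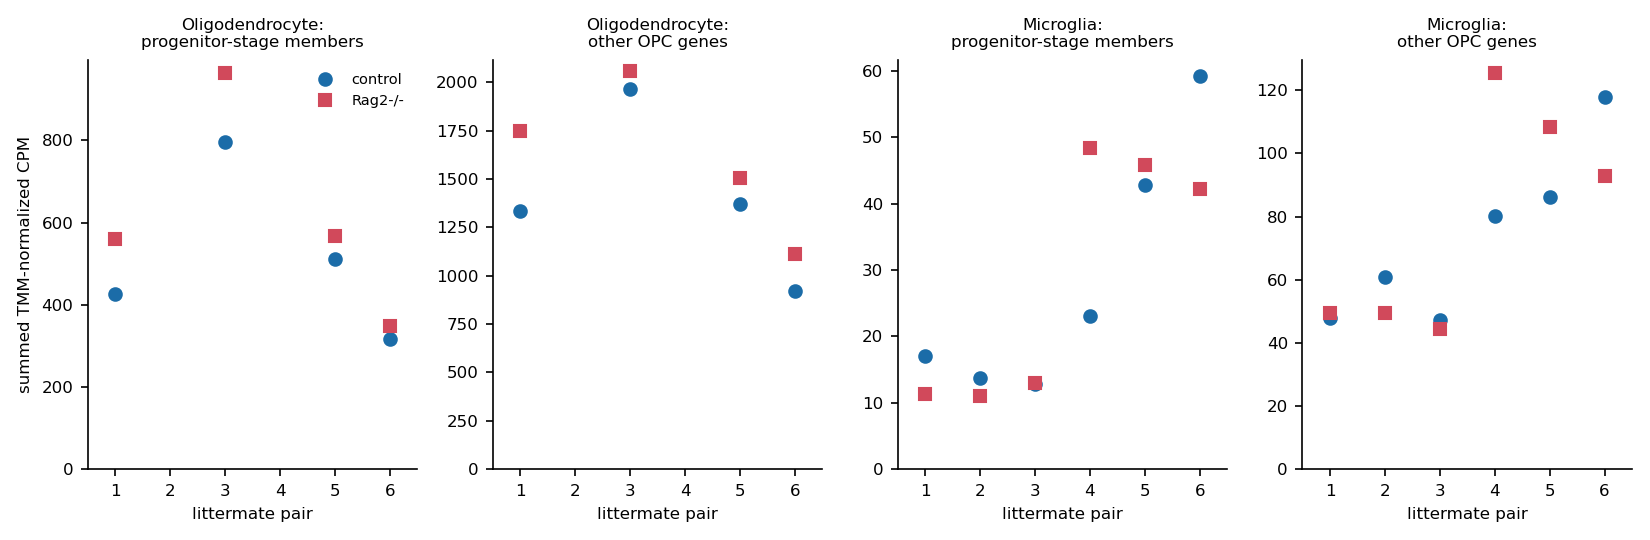
Summed CPM of the 6 progenitor-stage members and of 20 other OPC genes (vertical axes) by littermate pair (horizontal axis) in oligodendrocytes and microglia, with controls in blue and Rag2-/- in red. In oligodendrocytes both sums are highest in pair 3 (795 and 964 CPM for the members) and lowest in pair 6 (316 and 348 CPM), and in microglia they are higher in pairs 4 to 6.

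The main question of the series was whether a lack of lymphocytes changes glia. In OPCs 0 of the 10 genes differed between genotypes at an adjusted p under 0.05 by edgeR, where 0.00592% of the 16882 genes tested did (1 gene), and 0 by DESeq2, where 0.0149% of 33547 genes did. By edgeR 0 of 10 had an unadjusted p under 0.05, where 4.02% of all genes did. Log2 fold changes of Rag2-/- against control ran from -0.23 to 0.08, and for 7 members the 95% intervals stayed between -0.36 (Gpr17) and 0.32 (C1ql1), while those of Matn4, Bmp4 and Enpp6 reached further. The smallest p belonged to Matn4. It ran from 62.9 to 113 CPM in the 6 controls (median 78.5) and measured 46.4, 72.8, 86.5, 78.6 and 67.0 CPM in Rag2-/- pairs 1, 2, 3, 4 and 6. The groups overlapped, with the lowest value in Rag2-/- pair 1 (log2 -0.23, SE 0.17, adjusted p = 1.0). With the littermate pair as replicate block the Matn4 difference was -0.34 (adjusted p = 0.99), the only member then with an unadjusted p under 0.05, and its Rag2-/- library was the higher in 1 of 5 pairs. The Rag2-/- library of pair 1 was also lowest for Cspg4 (359 CPM) and held the highest astrocyte marker sum of all OPC libraries (5863 CPM). Over the OPC libraries 5 of 8 astrocyte markers had an unadjusted p under 0.05 between genotypes (median log2 0.53, sums of 2103 to 3100 CPM in controls and 2442 to 5863 CPM in Rag2-/- mice), and the medians of the endothelial and mural markers were 0.86 and 0.62. The part of those cells in the members' values was not tested.

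In oligodendrocytes 0 of the 10 genes passed either (0% of 13802 genes did, by edgeR, and 3.38% had an unadjusted p under 0.05, with 0 members among them). DESeq2 called 0 members and 0.705% of 29204 genes (206). The spread was wider, with log2 fold changes from -0.86 (Bmp4, SE 1.27) to 1.32 (Matn4, SE 1.04). The smallest p was that of Neu4, whose 4 Rag2-/- values (38.8, 59.8, 29.2 and 7.97 CPM) overlapped with those of controls and were the higher of the pair in 3 of 4 pairs (log2 1.05, SE 0.53, 95% interval -0.10 to 2.21, adjusted p = 0.998). The progenitor-stage sum was higher in the Rag2-/- mouse in 4 of 4 pairs, as was the sum of the other OPC genes, and no p is given for these sums. Ptprz1 made up most of the progenitor-stage sum (mean 318 of 512 CPM in controls). Singly, Cspg4 was higher in 4 of 4 pairs, Ptprz1, Lhfpl3 and Pcdh15 in 3 of 4, and C1ql1 and Matn4 in 2 of 4. The sum of the mature oligodendrocyte genes was higher in 3 of 4 pairs.

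In astrocytes 0 of 10 genes passed by edgeR or DESeq2 (0.00679% of 14725 genes did by edgeR and 0.003% of 33355 by DESeq2) and 0 had an unadjusted p under 0.05 (2.87% of genes), with log2 fold changes from -0.09 to 0.52 and the smallest p for Lhfpl3 (0.52, SE 0.38, adjusted p = 1.0). In microglia 6 of the 10 genes passed the filter, and 0 were called by edgeR or DESeq2 (0.00667% of 15003 genes were by edgeR and 0.00916% of 32759 by DESeq2) or had an unadjusted p under 0.05 (2.9% of genes), with the smallest p for Neu4 (log2 -0.98, SE 0.90, adjusted p = 0.999). Intervals in microglia were wide, such as -2.84 to 0.89 for Neu4 (0 to 48 counts per library), within which a change of several fold was not detectable. With the littermate pair as replicate block the SE for Neu4 was 0.56. The parts of low counts and of differences between pairs in this width were not tested.

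**Figure D5:**
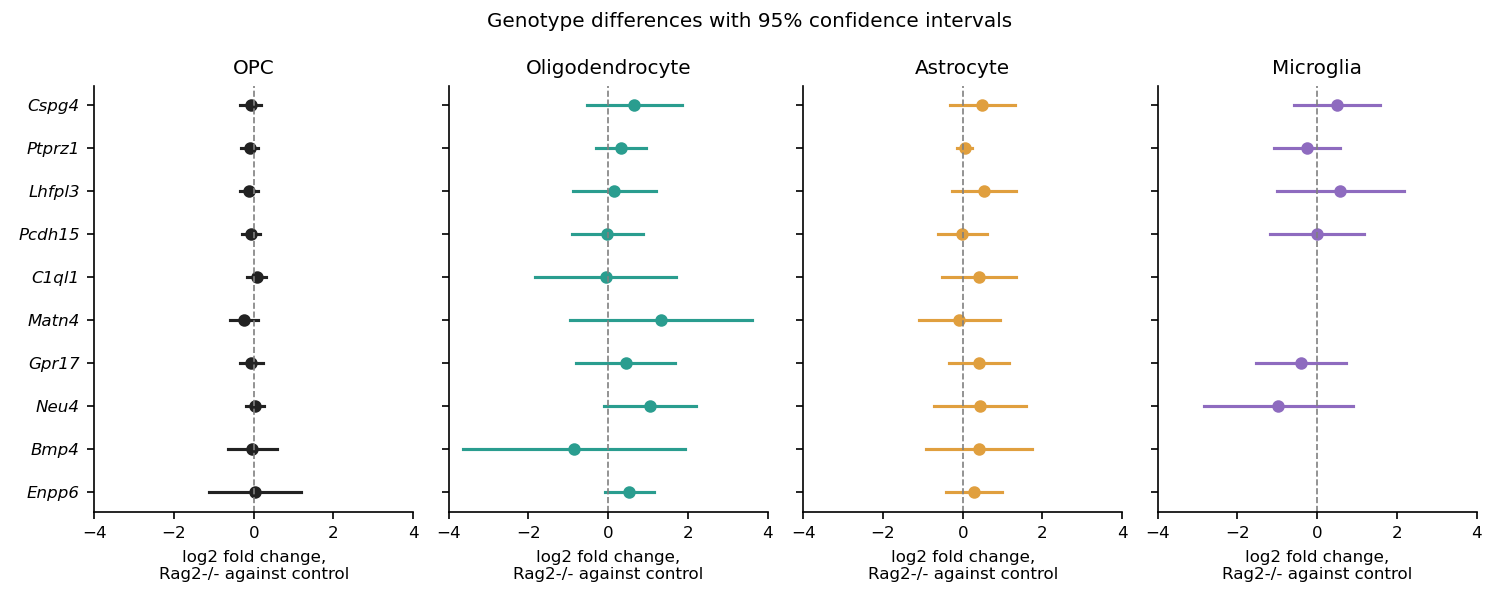
Log2 fold change of Rag2-/- against control (horizontal axis) for each member past the filter in 4 panels, 1 per cell type, with 95% intervals. In microglia 6 of 10 members are drawn, without C1ql1, Matn4, Bmp4 and Enpp6. Every interval spans 0, those of 7 members in OPCs lie between -0.36 and 0.32, and those of Bmp4 and Matn4 in oligodendrocytes are the widest (-3.64 to 1.93 and -0.95 to 3.6).

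The genotype effect in OPCs was also tested directly against that in oligodendrocytes. None of the 10 genes differed at an adjusted p under 0.05 by edgeR, where 1.08% of all genes did, and 0 had an unadjusted p under 0.05, where 15% of all genes did. DESeq2 called 0 members and 1.83% of all genes. Matn4 had the smallest p (difference of log2 effects -1.59, SE 0.90, adjusted p = 0.42). This value rested on the Rag2-/- oligodendrocyte library of pair 3, without which it was 0.63.

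The study also compared females with males, which in this design overlaps with litter, since littermates of a pair mostly shared their sex. The members passed in none of the 4 cell types at an adjusted p under 0.05 (0.0296% of genes in OPCs, 0.0362% in oligodendrocytes, 0.0407% in astrocytes and 0.0467% in microglia passed) by edgeR. DESeq2 called 2, Enpp6 and Bmp4, in oligodendrocytes, where it called 1.45% of 29204 genes (422), and 0 in the other cell types (0.0388% of genes in OPCs, 0.057% in astrocytes and 0.0336% in microglia). At an unadjusted p under 0.05 there were 0 members in OPCs (4.3% of genes), 3 in oligodendrocytes (8.23%), 5 in astrocytes (6.73%) and 0 of the 6 tested in microglia (3.92%).

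In astrocytes all 10 log2 fold changes of female against male were below 0 (median -0.86, against -0.003 over all genes). The share of all genes below 0 was not counted. The 10 genes were measured in the same libraries, so their signs are not separate observations. C1ql1 ran from 1.31 to 3.28 CPM in 5 females and from 1.80 to 8.74 CPM in 7 males (log2 -1.41, SE 0.47, adjusted p = 0.72), and Enpp6 from 6.41 to 10.8 and from 4.54 to 31.5 CPM (log2 -1.09, SE 0.34, adjusted p = 0.72). The ranges overlapped for both genes. The male mice include those of pairs 1 and 3, whose astrocytes held the most Cspg4. Among markers of other cells, 4 of 8 microglia markers had an unadjusted p under 0.05 (list median log2 -0.78, sums of 50.1 to 74.8 CPM in females and 42.4 to 157 CPM in males), and so did 5 of 20 other OPC genes (list median log2 -0.24). Their part in the members' values was not tested. In oligodendrocytes Enpp6 measured 34.3, 72.1 and 52.7 CPM in the 3 females and 66.2 to 139 CPM in the 5 males, overlapping at 1 female (log2 -1.11, SE 0.30, adjusted p = 0.51), while 4 of 8 neuron markers had an unadjusted p under 0.05 (median log2 0.98). In OPCs Enpp6 was nearest to the threshold with the opposite sign (log2 1.14, SE 0.55, adjusted p = 0.999). Of the mature oligodendrocyte genes 7 of 11 tested had an unadjusted p under 0.05 (list median log2 1.22, sums of 501 to 1370 CPM in females and 303 to 1175 CPM in males), and their part was not tested.

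Finally, the genes whose levels ran most like the members over the 43 libraries were found among 16475 genes with a mean of at least 1 CPM. For the progenitor-stage genes, by Pearson r with their mean z-score, these were Slc35f1 and Cacng4 (both 0.981), Pdgfra (0.979), Vcan (0.978) and Tmem255a (0.977). For the committed-stage genes they were Cobll1 (0.969), Tnr (0.960), Dscaml1 (0.956), Sh3d19 (0.955) and Lims2 (0.952). Of the members, Ptprz1 (0.811, progenitor stage) and Enpp6 (0.606, committed stage) followed the mean of their own set least. That mean includes the gene itself, which raises r, more so in the smaller committed-stage set. The libraries share mice, lanes and purification within cell types, and differences between cell types carry most of these correlations, which are given as descriptions.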

How the data were processed

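Glia of 4 types were purified by immunopanning from the cerebral cortex of littermate Rag2-/- and control mice, and amplified cDNA was sequenced. The authors deposited raw counts per gene for each library, made with STAR 2.7.8a and HTSeq on GRCm39 per the labels; whether counting used strand was not given in the sources used here. The 5 summary lines of each file (33.5% to 52.0% of reads assigned to no single gene) entered neither the library sizes nor any test.

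The 10 genes and all gene lists were chosen with earlier results of these data known. The text names all 10 genes, of each other list the 3 largest called changes and up to 3 called the other way, the 5 genes most alike, and in genotype and sex comparisons mainly the genes with the smallest p.

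Cell types were compared with edgeR 4.0.16 (R 4.3.3; quasi-likelihood test, TMM, filterByExpr with a minimum count of 10, Benjamini-Hochberg adjustment over all genes tested, threshold 0.05, two-sided) in 1 fit of all 43 libraries with cell type by genotype means and sex. Genotype and sex were fitted within each cell type. Scaling within a cell type differed from that over all libraries by -0.07 to 0.10 on the log2 scale. Alternatives were DESeq2 1.42.0, other scalings and filters, replicate blocks, heterozygous controls alone, 2 cell types alone and each library left out. On simulated counts the fit recovered 49 of 100 genes changed by log2 1 and 75 of 100 changed by log2 2 for genotype in OPCs (16882 genes), 6 and 31 of 100 for genotype in oligodendrocytes (13802 genes), and 31 and 56 of 100 for OPCs against oligodendrocytes (21368 genes).

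Littermates of a cell type deviated from their group means together only weakly (mean r 0.083 to 0.121 with the same pair number, -0.03 to -0.02 with different numbers), and the pairing comes from the labels' litters. No replicate libraries held identical counts. Figures were drawn with matplotlib 3.10.9.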

Additional observations from a re-analysis of the deposited data

Results flagged for a closer look

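Over the 80 groups of 4 to 6 libraries (10 genes in 8 groups), 7 held a library far from its group by Dixon's ratio, where chance alone gives about 1 in 20, or 4. In oligodendrocytes these were pair 3 libraries, with Ptprz1 at 517 CPM in the control (next 257) and Matn4 at 65.6 CPM in the Rag2-/- mouse (next 5.57). In astrocytes they were Pcdh15 at 22.6 CPM in control pair 3 (next 9.47) and Ptprz1 at 1078 CPM in Rag2-/- pair 2, the low end of its group (next 1221). In microglia they were pair 5 libraries with few counts, namely C1ql1 at 1.74 CPM in the control (next 0.562) and Matn4 and Enpp6, both at 1.24 CPM, in the Rag2-/- mouse (next 0.364 and 0.302).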

How the results depend on the processing

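Of the counts of members called, 147 of 150 values under other settings and all 645 with 1 library left out lay within 1.5 times the reported count. With 10 members a count of 8 or more cannot rise past that limit. Many libraries left out also belonged to cell types outside the comparison, so these shares say little about how firm the counts are. The count higher in OPCs than in oligodendrocytes was 8 or 9 over the other settings, and that higher in oligodendrocytes than in astrocytes 8 or 9. Leaving out libraries gave 8 higher and 1 lower for OPCs against oligodendrocytes, 9 higher and 1 lower against astrocytes, 10 higher against microglia, and 8 to 9 higher for oligodendrocytes against astrocytes, and 0 for each genotype, sex and difference-of-genotype comparison. With no filter on low counts 1 member was called for the genotype effect in OPCs minus that in oligodendrocytes (Matn4, adjusted p = 0.049) and 2 for sex in astrocytes (Gpr17 and Enpp6), and DESeq2 called 2 for sex in oligodendrocytes (Enpp6 and Bmp4). The cause was not tested. The Matn4 difference of genotype effects, -2.02 to 0.63 over the libraries left out, reversed without oligodendrocyte Rag2-/- replicate 3 (0.63) and without oligodendrocyte pair 3 (0.40, chosen after seeing the data), and the Neu4 genotype difference in microglia reversed with heterozygous controls alone (0.32). With the mouse as replicate block Bmp4 differed between oligodendrocytes and astrocytes by 1.61 (adjusted p = 0.098), and blocks changed no other call of a member. Under total counts the oligodendrocyte level as a percent of OPC was 7.56% for Ptprz1, 7.89% for Lhfpl3, 11.1% for Pcdh15 and 966% for Enpp6, with the other 6 genes between 5.17% (Cspg4) and 36.5% (Bmp4), and the astrocyte level of Ptprz1 was 40.0%. Counts over all genes moved more: the genotype effect in OPCs minus that in oligodendrocytes gave 230 genes, 23 with the mouse as block, 139 with total counts, 948 with no filter and 717 by DESeq2, genotype in oligodendrocytes gave 0 by edgeR and 206 by DESeq2, sex in oligodendrocytes gave 5 and 422, and OPCs against oligodendrocytes gave 8703 genes and 14634 with total counts. With no filter, genotype in OPCs gave 90 genes against 1, and sex gave 99 against 5 in oligodendrocytes and 118 against 6 in astrocytes. Counts were low for Enpp6 in OPCs (8 to 129 per library, against 77 to 395 for Bmp4) and for most members in microglia. Bmp4 had no count in 2 of 8 oligodendrocyte libraries. The part of depth in these results was not tested.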
